A study of Drosophila melanogaster with 8 samples.

Results

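The 4 genes krimp, orb, bam and AGO3 act in the fly germline, and sites of RNA polymerase II (RNAPII) assigned to them were examined here in a somatic cell line. They were chosen by name with earlier results of these data known, so their having entries is no result. In the authors' deposited table, 18 of 14357 entries had 1 of these as the annotated nearest gene. These were 1 for krimp, 2 for orb, 3 for bam and 12 for AGO3. RNAPII occupancy was measured by chromatin immunoprecipitation and sequencing in S2 cells, an embryo-derived, hemocyte-like line of Drosophila melanogaster. The groups were an H1 knockdown, aimed at the linker histone H1, and a LacZ control, named for a bacterial gene, with 2 RNAPII precipitations and 2 inputs of 10% in each. Both conditions used the same parental line with no other treatment given in the labels, and no value checks the depletion of H1 itself.

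Germ cells depend on genes that most somatic cells keep silent. Krimper (krimp) is a Tudor-domain scaffold of the nuage, the perinuclear granule where Argonaute proteins amplify Piwi-interacting RNAs (piRNAs) against transposons, and AGO3 is an Argonaute of that cycle. Bag of marbles (bam) drives the daughters of germline stem cells into differentiation, and Orb is a cytoplasmic polyadenylation element binding protein that controls translation of localised mRNAs in the oocyte. Linker histone H1 binds nucleosomes at the DNA entry and exit sites and is abundant in compact chromatin.

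Each entry is a peak of 1 of 2 lists, called on libraries pooled by condition, so that a site found in both lists appears as more than 1 entry. The table gives a log2 mean concentration per condition, which is the amount of RNAPII reads over the whole entry, and a fold, which is the log2 concentration in H1 knockdown minus that in LacZ. No value per library was available, so no spread between replicates can be shown and depth is unknown. The labels do not say whether replicates were separate cultures, and the authors' p-values then measure only the spread between these libraries, which may be technical. More cells with bound polymerase and more polymerase per cell cannot be told apart. All positions are in dm3.

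The label of S2 cells was first set beside marker genes, counting those with a site within 1000 bp of their transcription start site (TSS). These lists were chosen with earlier results of these data known, so the counts are a description and no independent check. The share of all annotated genes with such a site was not available as a reference. Of 13 hemocyte markers, 11 had such a site, among them the GATA factor gene srp, the peroxidasin gene Pxn, the hemolectin gene Hml and the collagen gene Col4a1. Of 12 germline-defining markers, 3 did: aub, rhi and bam itself. No entry was assigned to vas, osk, zpg, ovo, otu, dhd, pgc or bgcn, and nos could not be matched to the gene table. A gene without an entry is not thereby shown to be silent. In LacZ the median level of the 11 hemocyte markers, as log2 concentration per kb of entry, was 9.55. Over all 4278 genes with such a site it was 9.27. The 3 germline markers were at 9.14 (aub), 9.14 (bam) and 9.11 (rhi), so their median of 9.14 was the value of bam itself. As bam was chosen for study by name, neither its site nor its level is an independent check of the label. The levels of aub and rhi were read over H1 knockdown entries, and that of bam over a LacZ entry. The 2 of 7 ovarian somatic markers with a site, Fas3 and cas, were both found in the H1 knockdown list only, as were 714, or 16.7%, of the 4278 genes.

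Judged by the centre of the entry, 3 of the 4 genes had an entry within 1000 bp of their own start site and AGO3 did not. All 6 entries of krimp, orb and bam lay within 1000 bp of the TSS, were annotated as promoters and carried no repeat annotation. All 12 AGO3 entries carried a repeat annotation, and the centre of the closest was 1048 bp from a TSS. Its summit lay 836 bp upstream, so a cut at 1000 bp on summits would have included it. As every AGO3 entry was annotated to a repeat and none to a promoter, AGO3 is described below by the repeats assigned to it, not as a gene with bound polymerase at its promoter. The 18 entries merged into 11 loci, of which 7 were found in both lists, 3 in H1 knockdown alone and 1 in LacZ alone. At krimp, orb and bam 2 of 4 loci were found in H1 knockdown alone, against 17.1% of all loci within 1000 bp of a TSS, and at AGO3 1 of 7 loci was in H1 knockdown alone and 1 in LacZ alone, against 9.93% and 12.2% of loci with a repeat entry. Counts this small do not set these genes apart.

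By DiffBind, in the authors' deposited table, no entry of these genes passed a false discovery rate (FDR) of 0.05, and all 18 had an FDR of 1. None of all 14357 entries passed an FDR of 0.05 in either direction, so the background at this threshold was 0%. At an unadjusted p under 0.05, 1 of the 18 was higher in H1 knockdown, the krimp promoter, and 0 were lower. Over all entries 3.99% were higher and 0.0557% lower by that rule, so a single higher entry among 18 is near the background. Entries within 1000 bp of a TSS had 4.99% higher and 0.0122% lower by that rule, against 1 of 6 and 0 of 6 here, and entries with a repeat annotation 0.714% and 0.102%, against 0 of 12 at AGO3. The fold was above 0 at 6 of 6 entries of krimp, orb and bam and at 5 of 12 entries of AGO3, in the authors' deposited table. Folds above 0 were found at 92.9% of all entries within 1000 bp of a TSS and at 29.9% of all entries with a repeat annotation, so both counts follow what entries of their kind showed.

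**Figure D1:**
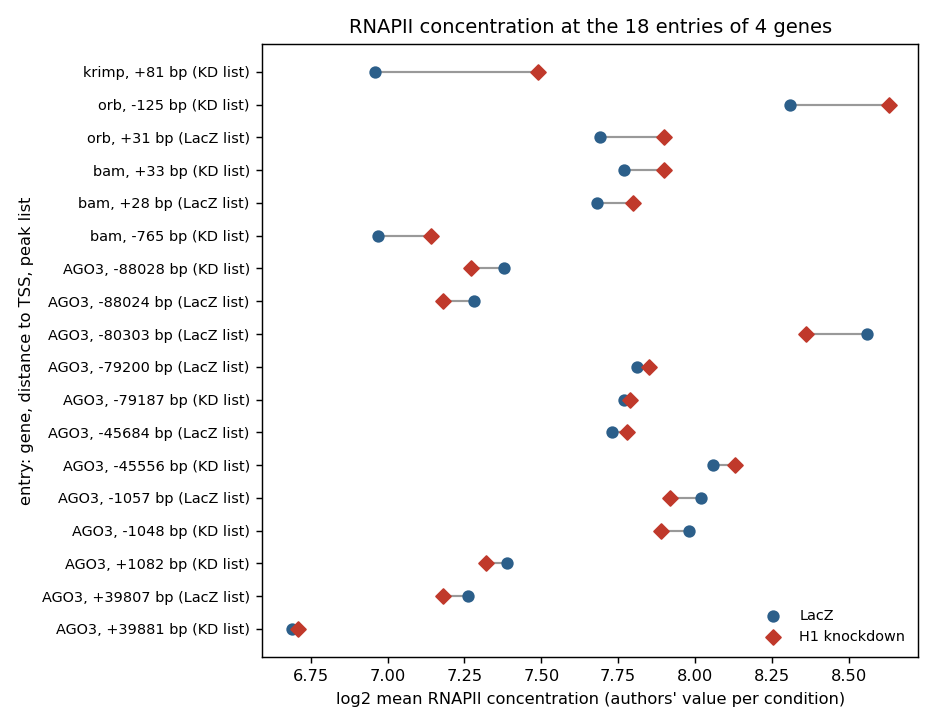
Log2 mean RNAPII concentration in LacZ (circles) and H1 knockdown (diamonds) at each of the 18 entries, named by gene, distance of the entry centre from the TSS in bp and peak list (KD, H1 knockdown). Each point is the authors' mean over 2 libraries, with no error available; the krimp promoter has the widest gap, from 6.96 to 7.49, and the AGO3 entries lie close together in both conditions.

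The krimp promoter had the largest fold of the 18 entries. Its single entry (2R, 12127978 to 12128315) was 338 bp wide with its centre 81 bp downstream of the TSS. In the authors' deposited table its log2 concentration was 6.96 in LacZ and 7.49 in H1 knockdown, a fold of 0.53 with an unadjusted p of 0.0292 and an FDR of 1. The difference thus did not pass correction over all entries. A peak was called there in the H1 knockdown list, with an authors' fold enrichment over input of 2.60, and none in the LacZ list. Within the H1 knockdown list that enrichment ranked at percentile 19.2 of the entries within 1000 bp of a TSS. Polymerase at krimp was thus low for a called promoter even where it was called.

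The krimp promoter entered the table through the H1 knockdown list alone, as did many other promoters: 764 of 4464 TSS loci, or 17.1%, against 34, or 0.762%, in the LacZ list alone. Among those 764 entries the median fold was 0.31, and 146, or 19.1%, had an unadjusted p under 0.05 with a fold above 0. The krimp fold was at percentile 93.9 of them, and 50 of them were at or above it. Its fold was thus in the upper part of that class, which was itself selected through the same H1 knockdown libraries, and no test was made.

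Over the 4278 genes with a site within 1000 bp of the TSS, the mean concentration per kb over both conditions and the fold had a Spearman rho of -0.56 and a Pearson r of -0.50, a description over genes that share the same libraries. Weakly bound promoters came in largely through the H1 knockdown list alone, and the part of this selection in the relation was not tested. Over the 714 genes with a site in that list only, rho was -0.409 and r was -0.385. Over the 3534 genes with a site in both lists rho was -0.51 and r was -0.42, and these too had to pass a call in each list. With that limit, each member was also set beside genes within 0.1 log2 units of its own mean concentration per kb. For krimp, 304 such genes had a median fold of 0.32, with the middle 50% between 0.22 and 0.42, and krimp was at percentile 93.6. Of these genes 23.0% had an unadjusted p under 0.05 with a fold above 0, and 66.4% were in the H1 knockdown list only. As most of these genes passed only through the H1 knockdown list, their median is no neutral reference for krimp.

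**Figure D2:**
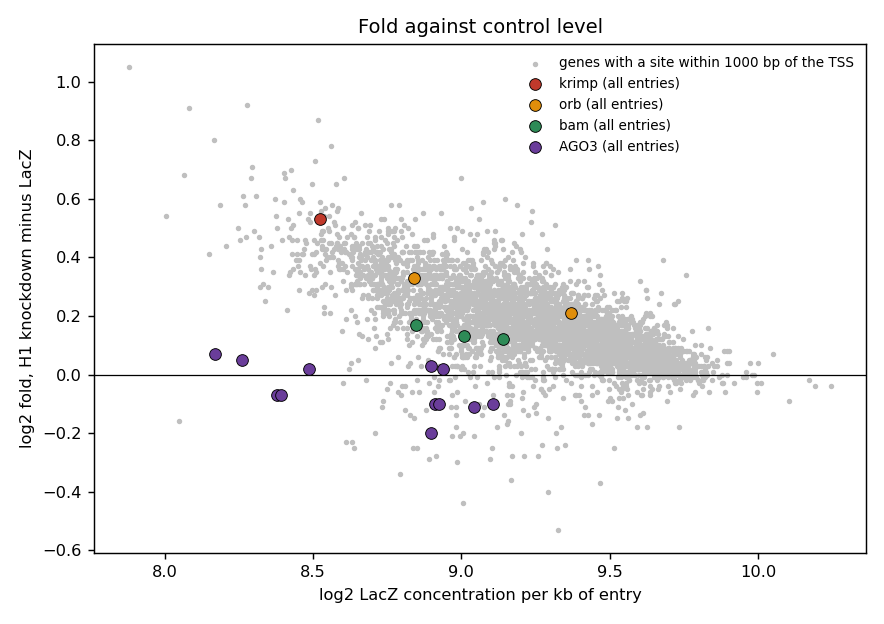
Fold (H1 knockdown minus LacZ, log2) against log2 LacZ concentration per kb of entry. Grey points are the 4278 genes with a site within 1000 bp of the TSS, each at its closest entry, and coloured points are all entries of the 4 genes; krimp lies at 0.53 among weakly bound promoters, orb and bam lie within the cloud, and the AGO3 entries run from -0.20 to 0.07, in the lower part of the cloud or beneath it. The fold shares its LacZ term with the horizontal axis.

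The orb promoter was called in both lists and its entry was wider in the H1 knockdown list. The LacZ entry (3R, 19106392 to 19106703) was 312 bp wide, with its centre 31 bp downstream of the TSS. In the authors' deposited table it had a log2 concentration of 7.69 in LacZ and 7.90 in H1 knockdown, a fold of 0.21 with an unadjusted p of 0.297. The H1 knockdown entry (3R, 19106358 to 19107049) was 692 bp wide and centred 125 bp upstream. Over this wider window the authors' deposited table gave 8.31 in LacZ and 8.63 in H1 knockdown, a fold of 0.33 with an unadjusted p of 0.079 and an FDR of 1. Both windows gave a higher mean in H1 knockdown, and neither passed either threshold.

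The extra width of orb lay almost wholly upstream of its start site. The distances of both entries place orb on the minus strand, and on that strand the H1 knockdown entry reached 346 bp farther upstream and 34 bp farther downstream than the LacZ entry. The summits differed by 10 bp and lay 50 bp and 40 bp downstream of the TSS. The width ratio was 2.22, against a median of 1.10 over 3587 TSS loci with 1 entry in each list, at percentile 98.3 with 61 loci at or above it. In the Release 6 gene table the next gene on the upstream side is Cdc16, which encodes a subunit of the anaphase-promoting complex, and no entry was assigned to it. Polymerase at orb and at this neighbour could not be told apart in the wide entry. Entry borders depend on the calling threshold, so the ratio is no measure of the amount of polymerase.

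Set beside promoters of like concentration, orb stood somewhat above the middle. For the LacZ entry the 1098 genes at a like level had a median fold of 0.13 and orb was at percentile 79.6. For the H1 knockdown entry, 615 genes had a median of 0.25 and orb was at percentile 69.3. Of the genes at a like level, 4.74% and 38.5% were in the H1 knockdown list only. These medians too are limited by how sites entered the table. Per kb, the LacZ level of orb was 9.37 over the LacZ entry and 8.84 over the wider one, so most of the signal lay in the narrower window.

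At bam, the main promoter peak was present in both lists and moved little between conditions. The H1 knockdown entry (3R, 21070535 to 21070958) had a log2 concentration of 7.77 in LacZ and 7.90 in H1 knockdown, a fold of 0.13 with an unadjusted p of 0.50, in the authors' deposited table. Over the LacZ entry (3R, 21070570 to 21070932) the authors' deposited table gave 7.68 and 7.80, a fold of 0.12 with an unadjusted p of 0.539. Widths were 424 and 363 bp, a ratio of 1.17 at percentile 71.0, and the summits lay 12 bp and 6 bp upstream of the TSS on the minus strand. The authors' fold enrichment over input was 3.34 in the H1 knockdown list and 2.77 in the LacZ list, at percentiles 32.4 and 25.5 of the TSS entries of each list.

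A weaker bam entry (3R, 21071409 to 21071680) was called in the H1 knockdown list alone. It was centred 765 bp upstream of the TSS and separated from the main entry by 450 bp. The authors' deposited table gave it 6.97 in LacZ and 7.14 in H1 knockdown, a fold of 0.17 with an unadjusted p of 0.469, and a fold enrichment over input of 1.68. That enrichment was at percentile 1.6 of the TSS entries of its list, so it was among the weakest promoter calls. It lies between bam and RpS27, a cytosolic ribosomal protein gene and the next gene on that side in the Release 6 table, whose closest entry was 1044 bp away. The authors' deposited table gave RpS27 folds of 0.18 and 0.14, with an enrichment of 10.8 in the H1 knockdown list. Which of the neighbouring genes the weak entry belongs to was not tested.

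All 3 bam folds were below those of most promoters at the same level. The median fold of genes at a like concentration per kb was 0.23 (699 genes) and 0.21 (892 genes) for the main entries and 0.285 (522 genes) for the upstream one. The bam percentiles were 19.7, 18.8 and 20.7. In the same order, 25.5%, 12.9% and 54.6% of these genes were in the H1 knockdown list only. Their medians are thus no neutral reference for bam either. The promoters of Sil1 and Nup358, near bam on the same arm and chosen after their values were seen, had larger folds in the authors' deposited table, 0.60 for Sil1 and 0.41 at both Nup358 entries, with unadjusted p-values of 0.018, 0.025 and 0.0292. Sil1 was called in the H1 knockdown list alone, so it entered the table through the condition in which it was higher, while Nup358 was called in both lists. The difference between these genes and bam was not tested.

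Ordered by LacZ level per kb at the entry closest to the TSS, orb came first at 9.37, followed by bam at 9.14 and krimp at 8.52. These came from LacZ-list entries for orb and bam and from an H1 knockdown entry for krimp. In the H1 knockdown list, which holds all 3, the order of the first pair turned, with bam at 9.01, orb at 8.84 and krimp at 8.52. With no spread over libraries, whether these neighbours in the order differ could not be tested. Among all genes with a site within 1000 bp, the genes with the most similar pair of concentrations, over 2 conditions and uncorrected for entry length, were CG17361 and mRpL12 for krimp, at distances of 0.01 and 0.022 log2 units. For orb they were CG17574 and CG6805, and for bam Acn and Nmd3, all at 0.01. For AGO3 they were Deaf1 at 0.01 and foi at 0.041.

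AGO3 lies in pericentric heterochromatin of arm 3L, and its 12 entries spread over 129553 bp with no entry of another gene among them. The last of them ended 941802 bp before the last entry of the arm. They formed 7 loci, 5 upstream of the gene and 2 in introns, at 5 kinds of transposable element. Of the 4755 genes with an entry, 295, or 6.20%, had entries at repeats only, and 11 of these had 12 entries or more. The nearest-gene annotation names a gene at any distance, so the upstream entries are near AGO3 only in the sense that no other TSS is closer.

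The locus nearest the AGO3 start site was an Invader1 long terminal repeat (3L, 23546367 to 23546905) of the Gypsy superfamily. Its centre was 1057 bp upstream in the LacZ entry and 1048 bp in the H1 knockdown entry. In the authors' deposited table the LacZ entry had a log2 concentration of 8.02 in LacZ and 7.92 in H1 knockdown, and the H1 knockdown entry 7.98 and 7.89. Both gave a fold of -0.10, with unadjusted p-values of 0.577 and 0.587. At 2.52 and 2.58, these were also the highest fold enrichments over input of the AGO3 entries. The summits lay 830 bp and 836 bp upstream, so the peak was not centred on the start site.

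Both intronic loci were weaker. A J1 element of the Jockey LINE class in intron 1 (3L, 23549856 to 23550359), 1082 bp downstream of an internal TSS, was called in the H1 knockdown list alone. The authors' deposited table gave it 7.39 in LacZ and 7.32 in H1 knockdown, a fold of -0.07 with an unadjusted p of 0.762. A Gypsy element in intron 4 of 7 had entries in both lists, with folds of -0.07 over the LacZ entry (7.26 and 7.18) and 0.02 over the shorter H1 knockdown entry (6.69 and 6.71) in the authors' deposited table. The sign of the fold thus changed with the window, at sizes far from any threshold.

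Farther upstream, a Gypsy3 element gave the lowest fold of the 18 entries and an adjacent one a fold near 0. The first (3L, 23466995 to 23467786), 80303 bp upstream and called in the LacZ list alone, had 8.56 in LacZ and 8.36 in H1 knockdown, a fold of -0.20 with an unadjusted p of 0.223 in the authors' deposited table. Its fold enrichment over input, 1.26, was the lowest of the 18. The neighbouring Gypsy3 locus, 79200 bp upstream, had folds of 0.03 and 0.02 in the authors' deposited table. An HMS Beagle element about 45684 bp upstream had folds of 0.05 and 0.07, and a J1 element 88024 bp upstream had -0.10 and -0.11, again in the authors' deposited table. All of these had an unadjusted p of at least 0.223.

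**Figure D3:**
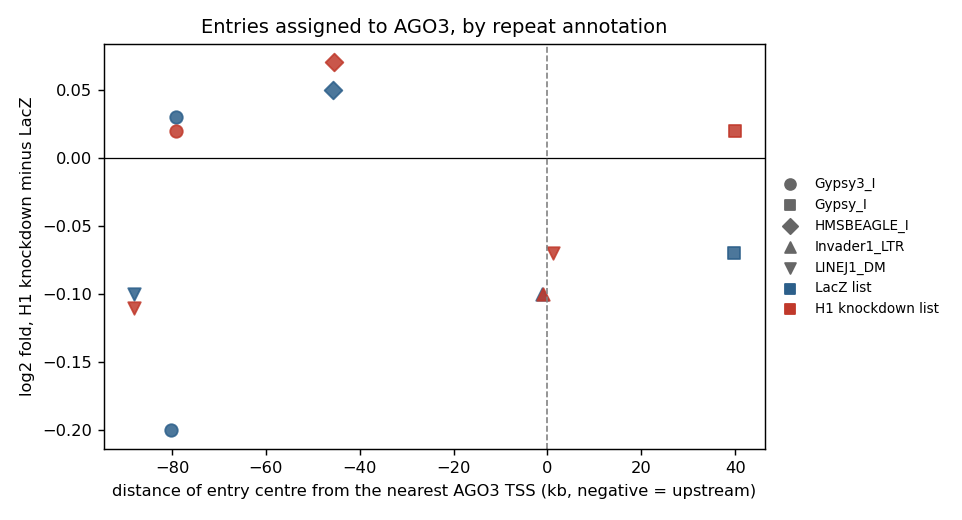
Fold at each of the 12 AGO3 entries (log2, H1 knockdown minus LacZ) against the distance of the entry centre from the nearest AGO3 TSS in kb, with negative distances upstream. Marker shape gives the repeat and colour the peak list; folds run from -0.20 to 0.07, and no entry lies on the dashed line of the start site.

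The repeats near AGO3 had folds within the range of the same repeats elsewhere. The 139 J1 entries assigned to other genes or to none had a median fold of -0.08 in the authors' deposited table, with 118 below 0, and the 3 at AGO3 ran from -0.11 to -0.07. For Invader1 the median elsewhere was -0.06 over 103 entries, for Gypsy -0.05 over 60 and for Gypsy3 -0.14 over 16. For HMS Beagle the 69 entries elsewhere had a median of -0.07, and the 2 at AGO3, 0.05 and 0.07, were at percentiles 92.8 and 94.2. Over all 387 entries elsewhere of these 5 repeats, 1 had an unadjusted p under 0.05. Reads from copies of a repeat may not be placed uniquely, so these entries are not independent of one another, and the treatment of such reads is not stated in the sources.

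**Figure D4:**
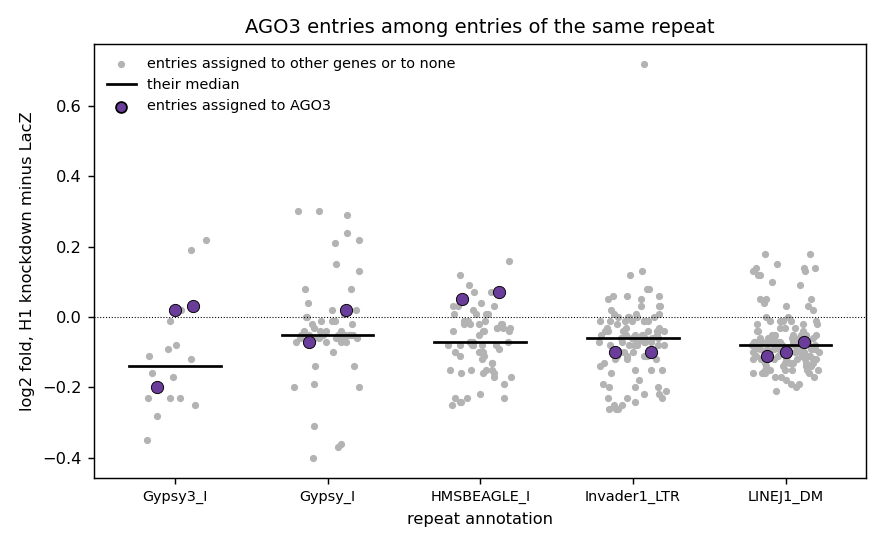
Fold (log2, H1 knockdown minus LacZ) of entries at the 5 repeats found near AGO3. Grey points are entries assigned to other genes or to none, with their median as a bar, and purple points are the AGO3 entries; the purple points lie inside the grey range of each repeat.

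The partners of these genes were counted in lists of the piRNA pathway, of germline stem cell and cyst differentiation, and of oocyte polarity and translational control, each gene at its entry closest to the TSS. In these lists 36 of 37, 28 of 29 and 25 of 26 genes matched the gene table. An unmatched gene is counted as without a site. For reference, 93.3% of the 4278 genes with a site within 1000 bp had a fold above 0, the median fold was 0.16, and 6.31% had an unadjusted p under 0.05 with a fold above 0. By DiffBind, in the authors' deposited table, 0 genes of any list passed an FDR of 0.05 in either direction.

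Of 37 piRNA pathway genes, 19 had a site within 1000 bp of the TSS, with a median fold of 0.15, 17 above 0 and 2 below. Of these 19, krimp had an unadjusted p under 0.05 and the other 18 did not. Besides krimp, the smallest p-values in the authors' deposited table belonged to deadlock (del) with a fold of 0.31 (p = 0.0723), rhino (rhi) with 0.27 (p = 0.105) and thoc7 with 0.26 (p = 0.119). Rhino and Deadlock mark the chromatin of dual-strand piRNA clusters in the germline. Aubergine (aub), the Argonaute that partners AGO3, had a promoter site in both lists with a fold of 0.06 in the authors' deposited table (p = 0.765), from 8.06 in LacZ to 8.12. No entry was assigned to piwi, vas, tej, qin, spn-E or zuc. The list also holds genes used in all cells, such as the chaperone gene Hsp83.

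Of 29 genes of stem cell and cyst differentiation, 16 had such a site, with a median fold of 0.135 and 14 above 0. The splicing factor gene snf, found in the H1 knockdown list only, had a fold of 0.39 with an unadjusted p of 0.0335 in the authors' deposited table. Partners of Bam in differentiation had folds of 0.26 at mei-P26 (p = 0.178) and 0.23 at tut (p = 0.264) in the authors' deposited table, while no entry was assigned to bgcn. The ubiquitin ligase gene Smurf had 0.23 (p = 0.183) and the BMP receptor gene tkv 0.28 (p = 0.244) in the authors' deposited table; tut was chosen after its values were seen. Lower folds in the same list and table were 0.14 at twin, 0.07 at Sxl, and -0.02 at both pum and Mad. Pum and Mad were the 2 genes with a site that lay below 0. The higher folds named above thus do not stand for the list, whose median was 0.135. As at bam, none of these folds passed correction.

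Of 26 oocyte polarity and translational control genes, 13 had a site, all in both lists and all with a fold above 0, with a median of 0.10. By the authors' deposited table the smallest p-values belonged to yps with 0.29 (p = 0.108), the DEAD-box helicase gene me31B with 0.27 (p = 0.175), gcl with 0.17 (p = 0.277) and tral with 0.18 (p = 0.292). The products of yps, me31B and tral are translational repressors that somatic cells also use. At its closest entry orb, at 0.21, was above the median of the list. No entry was assigned to osk, orb2, cup or stau.

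Of 18 genes of the testis meiotic program, 16 matched the gene table. Of these, 1 had a site, the cyclin gene CycB3, with a fold of 0.16 in the authors' deposited table (p = 0.367). The 11 hemocyte markers with a site had a median fold of 0.01, from -0.04 at He to 0.14 at vkg in the authors' deposited table, and 0 had an unadjusted p under 0.05. Their median level per kb was high, and fold and level were related over the promoters in the table. He, with the lowest fold, had a low level of 9.05 in LacZ and was found in the H1 knockdown list only. The part of level in these folds was not tested.

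**Figure D5:**
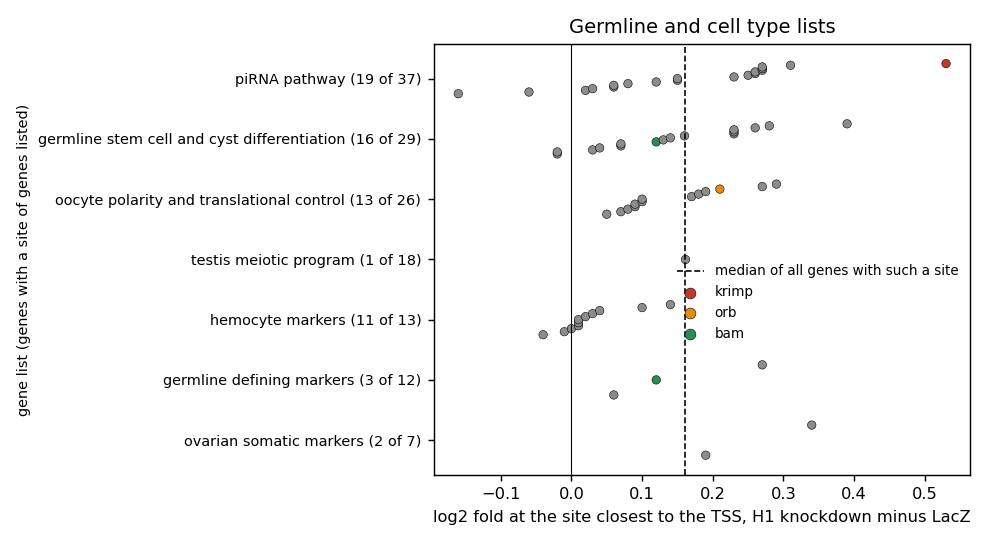
Fold (log2, H1 knockdown minus LacZ) at the entry closest to the TSS for the genes of 7 lists that have an entry within 1000 bp, with the number of such genes of all listed genes. Each point is a gene with no error available, and the dashed line is the median of all 4278 genes with such a site, 0.16; krimp lies to the right of the other listed genes at 0.53, bam left of the line and orb right of it.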

How the data were processed

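RNAPII precipitations and inputs of H1 knockdown and LacZ S2 cells, 2 libraries each and 8 in all, came from formaldehyde-fixed (1.8%, 10 min), sonicated chromatin, per the labels' protocols. Per the submitters' processing notes, Bowtie2 2.2.2, MACS 1.4.2, DiffBind 2.10.0, DESeq2 and dm3 were used; settings are not given in the sources used here, and the names in the files say MACS2 and Homer. The deposited table gives log2 concentrations and folds, p-values and FDR by the authors; library scaling is not given, so a fold of 0 is no fixed reference. The authors' fold equalled the difference of the 2 concentrations within 0.01. Per the file headers, peaks carry a fold enrichment ratio over input and a −log10 q. The deposited pileup signal, −log10 p and integer score were not used. All 7472 and 6885 table entries were found in the peak lists at the same positions.

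Entries sharing 1 bp or more were joined as loci, and the joining was tested on simulated intervals. Levels per kb divide by entry width. Of 127 listed genes, 123 matched a Release 6 table by symbol or synonym, used for names and neighbours only. Members and lists were chosen with earlier results of these data known. Named genes are all members, up to 4 genes per list of smallest p, and the 2 genes nearest in concentration per member. Alternatives concerned the site per gene, the reference of the fold, thresholds, merging, low concentration, promoter distance, peak threshold and overlap. Python 3.11.15, numpy 2.4.6, pandas 2.3.3 and matplotlib 3.10.9 were used.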

Additional observations from a re-analysis of the deposited data

How the results depend on the processing

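Of 31 alternative values, 28 kept the direction and the side of the threshold, 2 reversed and 1 moved. Several of the 28 could not have come out otherwise, so the tally is no measure of robustness. With a single krimp entry, every choice of site gave the same value. No member entry came near an FDR threshold, so each count by FDR had to be 0. Subtracting the median of all entries, which was above 0, had to leave the AGO3 fold negative. Relative to the median of promoter entries the bam fold was -0.03 in place of 0.12, and relative to genes at a like concentration per kb, a reference chosen after seeing the data, it was -0.09. By construction, a fold of 0.12 turns negative once a promoter median above it is subtracted. At an unadjusted p under 0.05, the count of called entries of the 4 genes was 1 in place of 0. The krimp fold was 0.53 at its only entry, 0.45 relative to all entries, 0.38 relative to promoter entries and 0.21 relative to genes at a like level. The same references left orb at 0.13, 0.06 and 0.08. The AGO3 fold ran from -0.20 to -0.047 over its alternatives. With a −log10 q of at least 5, 6 of 7 loci kept peaks of both lists. No paired analysis was possible because the deposited values are means over libraries, and for the same reason no replicate could be left out. The depth behind these values is unknown, so their precision is limited by the 2 libraries per condition.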
